A study of Homo sapiens with 6 samples.

Results

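The H3K4me3-first sequential chromatin immunoprecipitation (K4–K119) was compared with the same procedure run with nonspecific IgG at both steps (IgG–IgG). In K4–K119, sheared single-cross-linked chromatin was precipitated with an H3K4me3 antibody, eluted, and precipitated again with an H2AK119ub antibody. In IgG–IgG, rabbit IgG took the place of both antibodies. All libraries came from untreated parental NCI-H661 cells, an established line from a metastasis of lung large cell carcinoma, with 1000000 cells per reChIP and 2 biological replicates per condition. The 4 libraries used here were chosen from the 6 of the series by their antibody labels. A library in which one antibody was followed by IgG was not used here, so chromatin carried over from the H3K4me3 step alone cannot be told apart in these libraries from chromatin that the H2AK119ub antibody recovered.

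Each library was deposited as a list of EPIC2 peaks, with the reads of the reChIP and of a genomic input counted in each peak. The lists held 104207 and 123266 peaks in K4–K119 replicates 1 and 2, and 28672 and 31741 peaks in IgG–IgG replicates 1 and 2. Peaks with 10 or more reads on chromosomes 1 to 22 and X are called strong peaks here. There were 19217 and 8649 strong peaks in the K4–K119 replicates, against 1 and 2 in the IgG–IgG replicates. These are the peaks described, and the rest of each list served as its background.

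H3K4me3 is placed by the SET1 and MLL (KMT2) methyltransferase complexes and marks the first nucleosomes of active and poised promoters, most of all at CpG islands. H2AK119ub is placed by the RING1 ubiquitin ligases of Polycomb repressive complex 1 (PRC1) and is best known from silenced developmental genes, where the PRC2 mark H3K27me3 is often found with it. PRC1 with KDM2B, and several of the KMT2 and SETD1 complexes, carry CXXC domains that bind unmethylated CpG sites. A CpG site is a cytosine followed by a guanine on the same strand, and its density therefore stands beside the results.

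The following 200 bp stretches lie directly upstream of the annotated start of 4 genes and are shown because they span the range from strong peaks in both K4–K119 replicates to no peak. They are printed 5′ to 3′ on the gene's strand (the minus strand for all 4, hg38), with each CG in capitals. TGFB1 encodes the cytokine TGF-β1 (chr19:41353923-41354122), KMT2D an H3K4 methyltransferase (chr12:49060795-49060994), DPPA2 an embryonic chromatin factor (chr3:109316518-109316717), and CD3D a subunit of the T cell receptor complex (chr11:118342706-118342905).
TGFB1: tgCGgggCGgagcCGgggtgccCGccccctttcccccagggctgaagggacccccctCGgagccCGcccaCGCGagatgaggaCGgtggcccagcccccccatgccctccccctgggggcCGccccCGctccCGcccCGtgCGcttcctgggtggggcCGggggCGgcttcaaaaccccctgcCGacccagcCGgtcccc
KMT2D: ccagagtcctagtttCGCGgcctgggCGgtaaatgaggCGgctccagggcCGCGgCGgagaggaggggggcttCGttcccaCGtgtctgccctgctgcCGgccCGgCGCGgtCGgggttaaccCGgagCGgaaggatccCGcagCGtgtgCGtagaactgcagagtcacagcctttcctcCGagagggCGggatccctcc
DPPA2: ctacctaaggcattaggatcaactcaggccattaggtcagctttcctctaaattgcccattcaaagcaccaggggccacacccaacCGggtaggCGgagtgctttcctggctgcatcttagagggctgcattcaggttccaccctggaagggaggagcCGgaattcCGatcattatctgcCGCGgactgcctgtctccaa
CD3D: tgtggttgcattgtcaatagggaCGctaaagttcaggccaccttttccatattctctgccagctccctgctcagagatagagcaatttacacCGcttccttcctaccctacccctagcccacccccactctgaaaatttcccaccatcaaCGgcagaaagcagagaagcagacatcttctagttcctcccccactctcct
The TGFB1 and KMT2D stretches held 18 and 21 CG dinucleotides, and the DPPA2 and CD3D stretches 6 and 3. Over the 200 bp upstream of all 19970 protein-coding genes the median was 15, and 96.2% held at least 1. The strongest peak at the TGFB1 promoter had 1011 reads in K4–K119 replicate 1 and 606 in replicate 2, and that at KMT2D had 383 and 214. DPPA2 had a peak of 4 reads in replicate 1 and none in replicate 2, and CD3D had no peak in either. None of these 4 promoters had a peak in an IgG–IgG library.

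The first question was how far the recovered chromatin stood above what the bead and IgG background gave. Strong peaks made up 18.4% of all peaks in K4–K119 replicate 1 (exact 95% interval 18.2% to 18.7%) and 7.02% in replicate 2 (6.87% to 7.16%). They made up 0.00349% in IgG–IgG replicate 1 (8.83e-05% to 0.0194%) and 0.0063% in replicate 2 (0.000763% to 0.0228%). Intervals here and below cover counting error only. The lowest K4–K119 share was above the highest IgG–IgG share, so the conditions did not overlap. The reads in strong peaks came to 1767069 and 661954 for K4–K119, or 89.3% and 72.1% of the reads in all peaks, against 70 and 31 reads for IgG–IgG, or 0.119% and 0.0474%.

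The difference in the number of strong peaks was 13.15 on the log2 scale (mean of K4–K119 minus mean of IgG–IgG, n = 2 each), and in the reads they held it was 14.50. The exact two-sided permutation test over the 4 libraries gave p = 0.333 for both, which is the smallest value that 2 libraries against 2 can give. This test could therefore not pass 0.05 in any comparison of these conditions, and a difference is described here by whether the libraries overlap. The depth of sequencing of each library was not given in the sources used here, and the counts were compared without scaling to it.

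**Figure D1:**
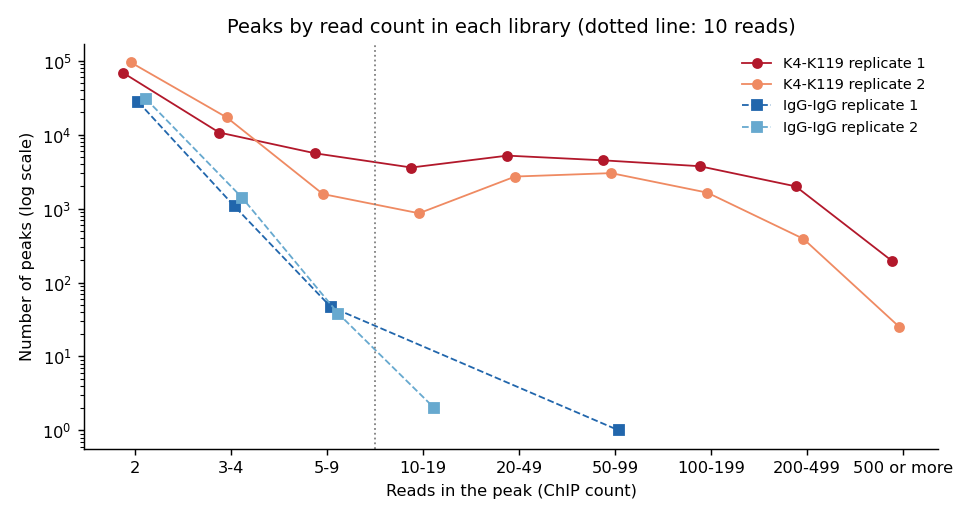
Number of peaks (log scale) by the number of reads in the peak for the 4 libraries, with a dotted line at the minimum of 10 reads. The K4–K119 replicates have 197 and 25 peaks of 500 or more reads, whereas the IgG–IgG curves end at 2 peaks of 10 to 19 reads and 1 peak of 50 to 99 reads.

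The bulk of every list was peaks of the smallest size. Peaks of 2 reads were 65.9% and 77.7% of the K4–K119 lists and 96.1% and 95.5% of the IgG–IgG lists. At the upper end, 5937 and 2058 K4–K119 peaks had 100 or more reads, and no IgG–IgG peak did. The median strong peak had 56 reads in replicate 1 (quartiles 25 and 120) and 59 in replicate 2 (34 and 97). The class counts of K4–K119 replicate 2 fell to 864 peaks at 10 to 19 reads and were 3016 at 50 to 99 reads, as the plot of peaks by read count shows. Replicate 1 had 3592 and 4489 peaks in those classes. The classes widen with the number of reads, so these counts do not show a separate group of large peaks above the minimum of 10 reads.

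Strong peaks were broad. The median width was 1300 bp in K4–K119 replicate 1 (quartiles 900 and 1900 bp) and 1500 bp in replicate 2 (1000 and 2100 bp). The single strong peak of IgG–IgG replicate 1 spanned 500 bp, and those of replicate 2 spanned 200 and 400 bp. The difference of the library medians was 1000 bp (exact permutation test, p = 0.333), with no overlap between conditions. Peaks above 4000 bp were the densest class, with a median of 84.0 reads per kb in replicate 1 and 53.2 in replicate 2. The lowest median was 28.9 at 501 to 1000 bp in replicate 1, below the 32.5 at up to 500 bp, and 30.0 at up to 500 bp in replicate 2. Per kb, the IgG–IgG strong peaks were not weaker than those of K4–K119, at 140 reads in replicate 1 and a median of 53.8 in replicate 2 against K4–K119 medians of 43.8 and 38.4. The difference was -1.08 on the log2 scale (exact permutation test, p = 0.333), and it rests on 3 narrow IgG–IgG peaks that are described below.

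Most strong K4–K119 peaks lay at the starts of protein-coding genes. A promoter is taken here as the 1500 bp on each side of any transcript start of a protein-coding gene in GENCODE release 44. These windows cover 5.80% of the genome. Strong peaks lay at a protein-coding promoter in 80.5% of cases in K4–K119 replicate 1 (exact 95% interval 79.9% to 81.0%) and 91.1% in replicate 2 (90.5% to 91.7%). None of the 1 and 2 strong IgG–IgG peaks did. With so few peaks the exact 95% intervals reach 97.5% and 84.2%, and the difference of 85.8 percentage points (exact permutation test, p = 0.333) says little about the IgG–IgG side. The IgG–IgG peaks of every size were the larger background, and 7.55% and 7.22% of them lay at a protein-coding promoter. They were not matched for width, with a median of 100 bp below 10 reads in both libraries, and a wider peak touches more windows. By the midpoint of the peak alone, the mean share of strong K4–K119 peaks at a protein-coding promoter was 84.8%.

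The share at promoters followed the number of reads. In K4–K119 replicate 1 it went from 12.3% of 2-read peaks through 45.2% at 5 to 9 reads and 86.7% at 50 to 99 reads to 97.0% at 500 or more. In replicate 2 it went from 7.08% through 33.2% and 93.9% to 96.9% at 200 to 499 reads, and was 88.0% in the 25 peaks of 500 or more (exact 95% interval 68.8% to 97.5%). In the IgG–IgG replicates it was 7.49% and 7.22% of 2-read peaks, and 6.38% and 7.89% of the 47 and 38 peaks of 5 to 9 reads. The IgG–IgG shares thus stayed below 10% in every class of 20 or more peaks. The 2-read peaks of K4–K119 replicate 2 lay below both IgG–IgG values, and those of replicate 1 lay above them. Width rose with reads as well, from a median of 200 bp at 2 reads to 4500 and 4800 bp at 500 or more in K4–K119. The part of width in the promoter share of these classes was not tested.

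**Figure D2:**
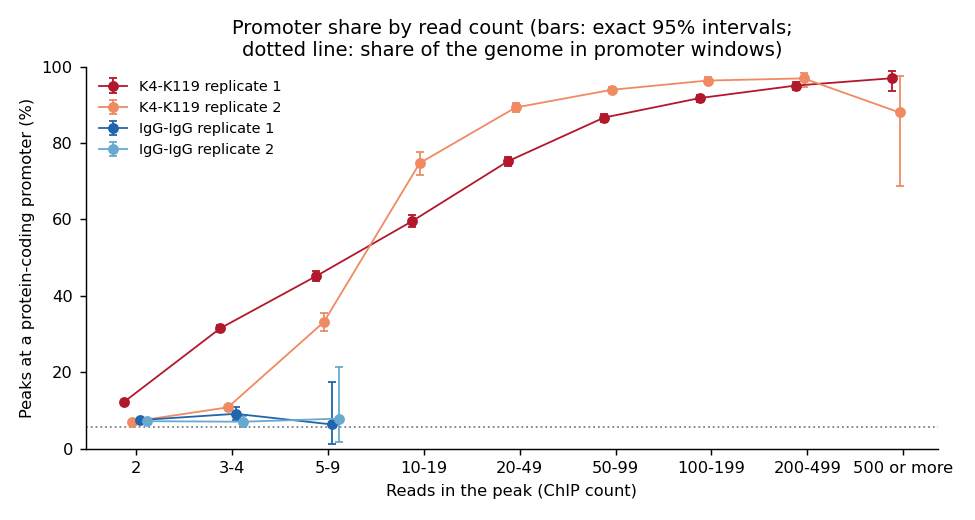
Percentage of peaks at a protein-coding promoter by the number of reads in the peak, for classes of 20 or more peaks, with exact 95% intervals and a dotted line at the 5.80% of the genome that the promoter windows cover. Both K4–K119 curves climb above 90% by 100 to 199 reads, and the IgG–IgG points stay below 10%.

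Away from protein-coding promoters, 7.88% and 4.57% of strong K4–K119 peaks lay at the start of another annotated gene. Most of these touched the start of a long noncoding RNA, at 1243 of 1514 peaks (82.1%) in replicate 1 and 342 of 395 (86.6%) in replicate 2. Introns held 3.62% and 1.09%, exons 1.83% and 0.844%, and intergenic sequence 6.20% and 2.36%. Strong peaks in introns were smaller, with median counts of 18 and 23 reads against 67 and 62 at protein-coding promoters. For comparison, introns held 49.3% and 48.8% of all IgG–IgG peaks and intergenic sequence 34.4% and 34.8%.

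Around the start itself, coverage by strong peaks was not symmetric. The share of the 19970 protein-coding genes covered by a strong peak was highest 200 bp downstream of the start in K4–K119 replicate 1, at 64.2%, and 300 bp downstream in replicate 2, at 35.6%. At the start itself it was 52.9% and 26.7%. At 1000 bp upstream it was 20.0% and 9.0%, and at 1000 bp downstream 40.0% and 25.8%, so both replicates leaned into the gene body. At 10000 bp upstream it had fallen to 2.30% and 1.05%. All IgG–IgG peaks together, with no minimum of reads, never covered more than 0.275% and 0.290% of genes at any distance.

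The sequence under strong K4–K119 peaks was rich in GC and CpG. The median GC content of strong peaks was 60.4% and 63.2% in the K4–K119 replicates, and the median density was 6.09 and 7.06 CpG sites per 100 bp. Peaks of 2 reads had 46.5% and 42.0% GC with 1.00 CpG site per 100 bp in both K4–K119 replicates, and 44% and 47.0% GC with 1.00 CpG site per 100 bp in the IgG–IgG replicates. Strong peaks in introns and intergenic sequence were as GC-rich as those at promoters, with 59.8% and 64.7% GC and 5.17 and 7.08 CpG sites per 100 bp. The part of base composition in how many reads a peak held was not tested.

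Genes were then ranked by the number of CpG sites within 500 bp of their start and divided into 10 groups of equal size. In K4–K119 replicate 1 the share of genes with a strong promoter peak was 8.91% in the lowest group, 76.7% in the fourth (41 to 56 sites) and 99.1% in the highest (114 to 207 sites). In replicate 2 it was 4.01%, 25.2% and 86.6%. Replicate 1 came close to its highest value by the middle groups, whereas replicate 2 kept increasing to the last. The share of genes with any IgG–IgG peak was 7.51% and 7.86% in the lowest group and 13.8% and 14.6% in the highest. Genes with a strong peak in both K4–K119 replicates had a median of 90 CpG sites in that window, genes strong in replicate 1 alone had 67, and genes strong in neither had 16.

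**Figure D3:**
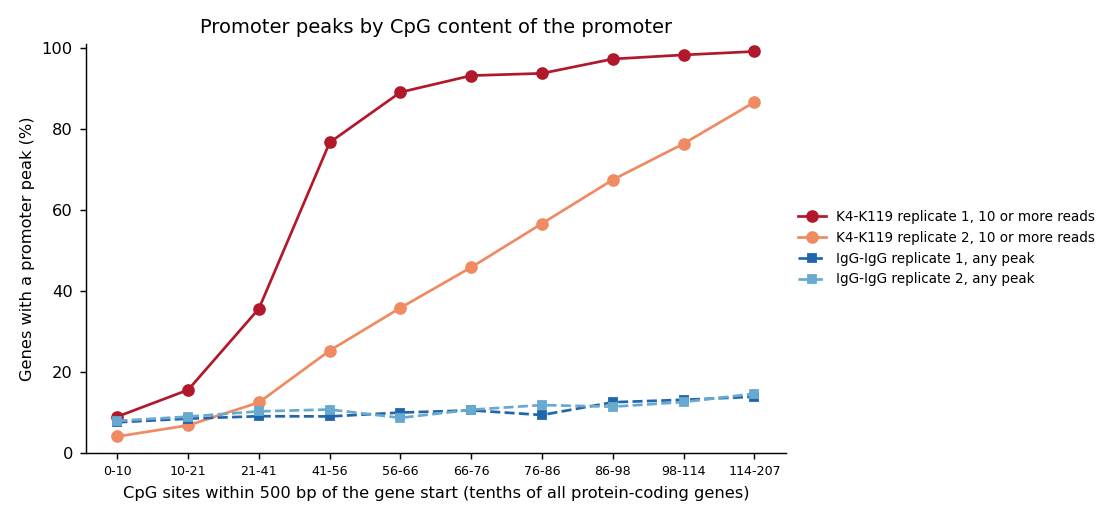
Percentage of protein-coding genes with a promoter peak in each of 10 equal groups of genes by CpG sites within 500 bp of the start. K4–K119 points count strong peaks and run from 8.91% to 99.1% in replicate 1 and from 4.01% to 86.6% in replicate 2. IgG–IgG points count peaks of any size and stay below 15%.

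At the level of genes, a strong promoter peak was found at 14128 of 19970 protein-coding genes in K4–K119 replicate 1 (70.7%) and at 8330 in replicate 2 (41.7%). Both replicates and no IgG–IgG library had one at 8309 genes (41.6%). Only 21 genes were strong in replicate 2 alone, whereas 5819 were strong in replicate 1 alone. At the genes strong in both, the median count of the strongest promoter peak was 128 reads in replicate 1 and 64 in replicate 2. No gene had a strong IgG–IgG peak, and the largest IgG–IgG count at any promoter was 5 reads in replicate 1 and 7 in replicate 2. Some IgG–IgG peak of any size was found at 22.3% of the genes strong in both K4–K119 replicates and at 17.0% of the other genes.

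The 10 genes with the highest read counts in both replicates and no IgG–IgG peak at their promoter included developmental, signalling and cytoskeletal genes. The first rank was a peak over SFTA3 and NKX2-1, which encodes the lung lineage transcription factor NKX2-1, with 1515 reads at chr14:36515701-36522000 in replicate 1 and 959 reads in replicate 2. INSM2, a zinc finger gene of neuroendocrine cells, had 1735 and 909 reads and was also the densest promoter peak by the lower of its ranks in the replicates, with 482 and 275 reads per kb. TNRC18 followed with 1078 and 744 reads, and ZFP36, which encodes an RNA-binding protein that promotes mRNA decay, had 966 and 702. TGFB1 had 1011 and 606, and PDGFA, which encodes a platelet-derived growth factor chain, had 1251 and 591. ACTG1, which encodes cytoplasmic γ-actin, had 908 and 655, and FSCN1, which encodes the actin-bundling protein fascin, had 1011 and 561. The others were BAZ1A, which encodes a chromatin remodelling subunit, with 1027 and 565 reads, and IRF2BPL with 880 and 554. Replicate 2 had fewer reads than replicate 1 at each of the 10.

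Of these 10 genes, 3 lie between 30 and 40 Mb of chromosome 14, where the input was also high. Strong peaks in K4–K119 replicate 1 had a median of 4.80 input reads per kb over the genome, and their median was 17.3 in the 5 Mb window from 35 Mb of chromosome 14. INSM2 had 22.2 and 20.6 input reads per kb in the peaks of the 2 replicates, and BAZ1A had 26.2 and 26.3. Per input read, the peak over NKX2-1 had 14.3 and 4.68 reads, INSM2 had 21.7 and 13.4, and BAZ1A had 13.5 and 6.14. The first-ranked peak, over NKX2-1, was thus near the lowest value of replicate 2, where strong peaks with an input read had a minimum of 4.67 and a median of 10. The other 7 of the 10 genes ranged from 14.2 to 44.7 reads per input read in replicate 1 and from 7.55 to 24.6 in replicate 2. The highest values were at PDGFA and the lowest at ZFP36. High input was not limited to chromosome 14, since ZFP36, on chromosome 19, had 18.9 and 18.6 input reads per kb. The part of the input in the rank of these genes was not tested. NFKBIA, which lies in the same stretch and was picked after its values were seen, had 893 and 546 reads with 144 and 117 input reads.

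The widest promoter peaks by their narrower replicate were those of IRS1 (7800 and 7500 bp), ACTG1 (7900 and 7100 bp), ELFN1 (7400 and 6900 bp), ZIC2 (6700 and 6600 bp) and VSTM2B (7200 and 6500 bp). IRS1 encodes the insulin receptor substrate, and ZIC2 a zinc finger transcription factor of the early nervous system. Their widths differed between replicates by less than the quartile range of all strong peaks. The choice by the narrower replicate favours such likeness, so it does not describe wide peaks in general. The densest promoter peaks after INSM2 were MTCL1 (295 and 215 reads per kb), PLEKHG2 (263 and 197), DPF1 (313 and 172) and BAZ1A (354 and 161). The 4 widest peaks of replicate 1, picked after their values were seen, covered HOXC6 and HOXC9 (11200 bp, 858 reads), SIX3 (11100 bp, 1122 reads), PAX6 (10000 bp, 623 reads) and ZFTA (9400 bp, 768 reads). In replicate 2, each met more than 1 peak, of which the one with most reads was 4600 bp with 232 reads at HOXC6 and HOXC9, 3600 bp with 505 at SIX3, 6100 bp with 174 at PAX6 and 3200 bp with 198 at ZFTA.

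Most PRC1 and PRC2 genes, whose products place or extend Polycomb marks, had a strong promoter peak in both replicates. All 15 genes of the PRC1 catalytic and PCGF subunits had a strong promoter peak in replicate 1, against 70.7% of all protein-coding genes, and 12 of them in both replicates (80.0%, against 41.6%). PCGF2 had 589 and 307 reads, BCOR 373 and 244, AUTS2 324 and 186, and BCORL1 346 and 171, and at AUTS2 both IgG–IgG replicates had a peak of 2 reads. Of the 10 chromobox, Polyhomeotic and SAM subunits of PRC1, 7 were strong in both (70.0%), among them CBX2 (358 and 190 reads), CBX6 (204 and 128) and SCMH1 (213 and 94). Of 12 PRC2 genes, 8 were strong in both (66.7%), among them EPOP (534 and 214 reads), the methyltransferase EZH2 (293 and 125), PHF19 (171 and 79) and AEBP2 (155 and 70). Of 9 genes for H2AK119 deubiquitinases and their partners, all were strong in replicate 1 and 4 in both (44.4%), namely USP3 (170 and 92 reads), USP22 (149 and 92), ASXL2 (92 and 53) and ASXL3 (70 and 27). That share was close to the background of all genes. The median CpG counts of the PRC1 catalytic, chromobox and PRC2 lists were 90, 117 and 96, against 66 over all genes. Among all genes with 86 to 98 and 114 to 207 CpG sites, 67.5% and 86.6% were strong in replicate 2. The exact 95% intervals of the chromobox and PRC2 shares in both replicates were 34.8% to 93.3% and 34.9% to 90.1%. Both include 41.6%.

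The genes of H3K4 writers and erasers had strong peaks more often than not. Of 18 genes of the H3K4 methyltransferase complexes, all were strong in replicate 1, against 70.7% of all genes, and 13 in both (72.2%, against 41.6%), led by KMT2D (383 and 214 reads), KMT2A (327 and 212), SETD1B (419 and 196) and KMT2B (217 and 146). Of 5 H3K4 demethylases, all were strong in replicate 1 and 4 in both (80.0%). KDM5B had 363 and 182 reads, KDM1B 153 and 102, KDM1A 98 and 62, and KDM5A 40 and 12. The fifth, KDM5C, had 34 reads in replicate 1 and 2 in replicate 2. Of 12 genes for CXXC proteins, which bind unmethylated CpG sites, all were strong in replicate 1 and 10 in both (83.3%). They were led by CXXC5 (508 and 218 reads) and TET1 (241 and 165), with KMT2A and KMT2B counted here as well. The median CpG counts of these 3 lists were 106, 86 and 81, against 66 over all genes.

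DPPA2 and DPPA4, the embryonic factors that the study reports as present together in this line as mRNA and protein, had neither promoter strong in both replicates. DPPA4 had a peak of 44 reads over 13 input reads in K4–K119 replicate 1 and 4 reads in replicate 2, and IgG–IgG replicate 1 had a peak of 2 reads there. DPPA2 had the 4 reads given above. DPPA2 had 42 and DPPA4 22 CpG sites within 500 bp of the start, against a median of 66 over all protein-coding genes. These values describe the chromatin of the DPPA2 and DPPA4 genes and not the binding of their proteins.

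Developmental signalling genes were covered in a higher share than the 41.6% of all genes. Of 35 Notch and Hedgehog genes, 29 were strong in both replicates (82.9%), among them the clock repressor HES7 (641 and 309 reads), the Hedgehog receptor PTCH1 (387 and 269), NOTCH1 (392 and 217) and HES4 (550 and 210). Of 41 TGF-β and BMP genes, 32 were strong in both (78.0%), with TGFB1 followed by the inhibitory SMAD6 (772 and 595 reads), the corepressor SKI (837 and 493) and the ligand BMP7 (609 and 358). Of 34 Wnt ligands and receptors, 25 were strong in both (73.5%), led by the receptors FZD8 (554 and 405), FZD7 (431 and 282) and FZD2 (394 and 311) and the ligand WNT11 (736 and 266). WNT11 had an IgG–IgG peak of 2 reads in replicate 2. The median CpG counts of these 3 lists were 89, 109 and 102, above the 66 of all genes.

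Transcription factor genes of other lineages were also recovered. Of 30 neuronal differentiation factors, 26 were strong in replicate 1 (86.7%) and 20 in both (66.7%), led by DLX2 (517 and 458 reads), SOX3 (571 and 330), DLX1 (396 and 407) and POU3F2 (359 and 232). DLX1 was the one of these 4 with more reads in replicate 2. Of 39 HOX genes, 37 were strong in replicate 1 (94.9%, against 70.7% of all genes) and 22 in both (56.4%, against 41.6%). HOXC6 and HOXC9 shared 1 peak, and HOXC13 (332 and 230 reads) and HOXC10 (337 and 182) followed. Neighbours such as HOXB3 and HOXB4, HOXB7 and HOXB8, and HOXD10 and HOXD11 also had the same values in each replicate. The HOX counts are therefore of genes and not of separate peaks.

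Genes that dividing cells use were covered too. Of 28 genes of the G1 cell cycle, all were strong in replicate 1 and 26 in both (92.9%), the highest share of the 19 lists. CCND1 had 525 and 289 reads, CCNE1 638 and 280, CDK6 501 and 268, and CDK4 489 and 238. These genes encode the cyclins and kinases that carry cells into S phase, and IgG–IgG replicate 1 had 2 reads at CCND1. Of 74 cytoplasmic ribosomal protein genes, 72 were strong in replicate 1 (97.3%, against 70.7% of all genes) and 40 in both (54.1%, against 41.6%), with RPL7 (310 and 211 reads), RPS2 (224 and 167), RPL36 (211 and 177) and RPL13 (229 and 144) at the head. The ribosomal list was thus near complete in replicate 1. The median count of its strong members there was 52.5 reads against 182 for those of the HOX list, where neighbours can share a peak.

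Genes of the immune, olfactory receptor and cancer-testis lists were mostly without strong peaks, unlike the neuronal factors above. Of 36 immune and blood cell genes, 7 were strong in replicate 1 (19.4%, against 70.7% of all genes) and none in both (against 41.6%). These 7 had 12 to 94 reads, of which CD8A, named after its values were seen, was the highest. No immune gene exceeded 4 reads in replicate 2. CD3E and CD3G had 2 reads each in replicate 1, and CD4 had a 2-read peak in IgG–IgG replicate 1 and none in K4–K119. Of 46 olfactory receptor genes, 2 were strong in replicate 1 (4.35%) and 1 in both (2.17%), OR1F1 with 110 and 54 reads. Of 25 cancer-testis genes, 4 were strong in replicate 1 (16%) and 1 in both (4%), PRAME with 57 and 22 reads. The median CpG counts of the immune, olfactory and cancer-testis lists were 15, 7 and 39. Among all genes with 10 to 21, 0 to 10 and 21 to 41 CpG sites, 15.5%, 8.91% and 35.6% were strong in replicate 1.

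The lung epithelium list holds genes of the labelled tissue, and its share does not test the identity of the cells. Of 26 genes, 13 were strong in replicate 1 (50%, against 70.7% of all genes) and 6 in both (23.1%, against 41.6%). The other members strong in replicate 1 were not strong in replicate 2, and the rest were strong in neither. The epithelial markers EPCAM (157 and 56 reads) and CDH1 (89 and 39) and the lung genes NKX2-1, FOXA1 (114 and 43), ABCA3 (178 and 71) and SFTPC (97 and 42) were the 6 strong in both. SCGB1A1, a marker of club cells, had 2 reads in replicate 1. CDH1, SFTPC and SCGB1A1 were added after their values were seen. The median CpG count of the lung list was 31.5. Among all genes with 21 to 41 CpG sites, 35.6% were strong in replicate 1 and 12.4% in replicate 2.

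Over all lists, 14 of 19 exceeded the 41.6% of all protein-coding genes that were strong in both replicates, and 8 had every member strong in replicate 1. Replicate 1 had a share at or above that of replicate 2 in all 19. The median CpG count within 500 bp of the start was between 68 and 117 in the 14 lists above the background and between 7 and 39 in the 5 below it. The part of the CpG count in the list shares was not tested.

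The replicates of K4–K119 differed in how many strong peaks they held and less in where these lay. Of the strong peaks of replicate 2, 8459 (97.8%) overlapped a strong peak of replicate 1 by more than 25% of both, whereas 8441 (43.9%) of those of replicate 1 overlapped one of replicate 2. Over the 8582 overlapping pairs, replicate 2 had a median of 0.514 times the reads of replicate 1 (quartiles 0.405 and 0.632). Pearson's r between the replicates over these pairs was 0.851 for log2 reads and 0.708 for log2 width, as a description of peaks that share libraries and an input. A further 9193 strong peaks of replicate 1 (47.8%) met no peak of any size in replicate 2.

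Shared and unshared peaks of replicate 1 differed in size. The shared peaks had a median of 67.1 reads per kb and 1800 bp and lay at a protein-coding promoter in 91.7% of cases. The unshared peaks had a median of 31.2 reads per kb and 1000 bp and lay there in 71.7%. The median was 16.4 reads per input read in shared and 6.00 in unshared peaks. No strong peak of replicate 2 with an input read had under 4.67 reads per input read, whereas 3571 of replicate 1 (18.6%) did, and 3484 of these were unshared. The 2 lists were therefore cut at different levels over the input. At or above that level or without input reads, 8354 of 15646 strong peaks of replicate 1 (53.4%) were shared.

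The input was the same in both K4–K119 lists as far as the files show. At 263 peaks with identical coordinates in both replicates and at least 1 input read, the input counts were equal in all 263. At the 7 such peaks that a K4–K119 list shared with an IgG–IgG list they were equal as well. The input was therefore not an independent replicate. Strong K4–K119 peaks had a median of 6 input reads in both replicates, or 4.80 and 3.85 per kb, and 2.35% and 3.24% of them had none. The strong IgG–IgG peaks had 0 input reads per kb in replicate 1 and a median of 23.8 in replicate 2. The difference of -7.55 input reads per kb between conditions was smaller than that between the 2 IgG–IgG libraries (exact permutation test, p = 1.00).

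The strong IgG–IgG peaks lay in a T-rich tract and at places of high input. The largest, with 70 reads and no input read in replicate 1, lay at chr2:32866701-32867200 in an intron of the noncoding gene LINC00486. It had 11 reads in K4–K119 replicate 1, 25 in replicate 2 and no peak in IgG–IgG replicate 2. In its sequence, GC was 10.5% of the known bases, and T was 77.0% of all 500 bp on the plus strand. The peak also spans bases that are unknown in hg38, and it holds no CpG site. The central 120 bp (chr2:32866891-32867010, hg38, plus strand) are shown because they contrast with the CpG-rich stretches above.
LINC00486 intron: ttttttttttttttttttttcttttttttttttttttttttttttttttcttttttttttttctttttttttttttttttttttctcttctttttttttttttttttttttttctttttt
This stretch has no capitals, since it holds no CG. In IgG–IgG replicate 2 the peaks were at RNU6-1, a U6 small nuclear RNA gene, with 19 reads over 7 input reads (chr15:67840001-67840400), and in an intron of SYPL1, with 12 reads over 6 input reads (chr7:106101301-106101500). K4–K119 replicate 1 had peaks of 51 and 25 reads at these 2 places and replicate 2 had none.

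Below 10 reads, the largest IgG–IgG peaks mostly met nothing in K4–K119. In replicate 1 these were a peak of 9 reads in SUZ12, a PRC2 gene, and peaks of 6 reads in CELF2, ARHGAP21 and KCNMA1. K4–K119 replicate 2 had 3 reads at the SUZ12 peak, and no other K4–K119 peak overlapped these 4. In replicate 2, peaks of 6 reads lay in DAAM2 and over FER1L5 and KANSL3, where the K4–K119 replicates had none. Over the strong K4–K119 peaks as a whole, 1.93% and 2.36% of those of replicate 1, and 2.29% and 2.83% of those of replicate 2, overlapped a peak of IgG–IgG replicates 1 and 2, with a median of 2 IgG–IgG reads.

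Of the strong K4–K119 peaks shared by both replicates, 322 touched no annotated start. The largest by rank were intergenic peaks on chromosome 2 at chr2:90323001-90326400 (620 and 236 reads over 11 and 11 input reads), chr2:91477001-91479600 (606 and 220 over 21 and 18) and chr2:94272701-94274100 (437 and 185 over 13 and 13). A peak over an exon of TCHH, which encodes the hair follicle protein trichohyalin, had 474 and 195 reads (chr1:152107301-152113100). A peak near the end of chromosome 5 (chr5:52601-55700) had 330 and 166 reads over 33 and 33 input reads. The first 3 lie on both sides of the chromosome 2 centromere.

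A pair of outlying K4–K119 peaks, picked after their values were seen, had no counterpart of like size. In replicate 2 a peak of 27400 bp on chromosome 21 (chr21:8988601-9016000) held 3575 reads over 434 input reads, whereas replicate 1 had 2 peaks there, neither above 2 reads. In replicate 1 a peak of 600 bp in LINC00486 (chr2:32916101-32916700) held 638 reads over 179 input reads, or 298 input reads per kb, and replicate 2 had none. Both had far more input per kb than the median strong peak.

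The peaks nearest the minimum of 10 reads were small in their own library and not always in the other. In K4–K119 replicate 1, the first promoter peaks with exactly 10 reads were at EIF4G3, E2F2 and ZNF684, where replicate 2 had none, 2 and none, and those with 9 reads were at CDK11A, H6PD and CTNNBIP1, where replicate 2 had none. In replicate 2, peaks of 10 reads were at SPEN, ZMPSTE24 and the CCDC163 and MMACHC pair, where replicate 1 had 51, 22 and 59 reads. Peaks of 9 reads were at TNFRSF1B, PSMB2 and the FAM72B and SRGAP2C pair, where replicate 1 had none, 9 and 19. The minimum left 652 and 185 peaks of exactly 9 reads outside and took in 546 and 135 of exactly 10.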

How the data were processed

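Sequential ChIP (reChIP) DNA from NCI-H661 cells was sequenced in 2 biological replicates of K4–K119 and of IgG–IgG. Per the submitters' processing notes and the study's methods, the tools were Trim Galore 0.6.6 for adapters, BWA 0.7.13 for alignment (hg38), SAMtools 1.9 and Picard 2.6.0, and EPIC2 for peaks of each replicate over genomic input, in bins of 100 bp. The deposited lists hold read counts of reChIP and input in each peak, not normalised, an FDR (a q-value), and a log2 fold change over input. The counts gave the reported values, and the authors' FDR and log2 columns served only as filters in alternatives, where FDR is below 0.05 in every deposited peak. Neither the removal of blacklisted regions nor the merging of replicates was repeated, and the 2 libraries of the reverse antibody order were not used.

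Peaks were kept on chromosomes 1 to 22 and X at 10 or more reads. Starts are 1-based. Positions came from GENCODE release 44 with promoters of 1500 bp on each side of a start, in the order protein-coding promoter, promoter of another gene, exon, intron, intergenic. A gene's value is its promoter peak with most reads. Replicate peaks were matched by an overlap of more than 25% of both. A library without a strong peak entered on the log2 scale at a floor of 3 counts, which happened only in some of the alternatives. The 7 library measures were compared by exact two-sided permutation tests over 4 libraries, and shares were given exact (Clopper-Pearson) 95% intervals. GC and CpG content were read from the hg38 genome, which carries the same coordinates as the authors' build. Functions were tested on simulated peaks. Python 3.11.15, pandas 2.3.3, SciPy 1.17.1 and pysam 0.24.0 were used.

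Named genes were the 10 with most reads by the lower of their within-library ranks and no IgG–IgG peak, the 5 widest and up to 5 densest promoter peaks, up to 4 members of each of 19 gene lists and all members of short lists, the 5 strongest peaks of each IgG–IgG library and of the shared peaks outside promoters, and peaks at 10 and 9 reads. The members and lists were chosen with earlier results of these data known. In the cancer-testis list, BAGE was not matched. A few items that this rule would name are not reported here.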

Additional observations from a re-analysis of the deposited data

How the results depend on the processing

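Of the 7 library measures, the number of strong peaks, their share, their reads, their width and their promoter share kept their direction under every alternative run: minimums of 5 and 20 reads, log2 fold over input above 1, FDR below 0.01, at least 1 input read, all sequences, other promoter definitions for the promoter share, and leaving out each library in turn. The sizes moved: the difference in strong peaks fell from 13.15 to 8.51 on the log2 scale at a minimum of 5 reads and ranged from 12.32 to 13.73 elsewhere, and that in their reads was 14.50, 12.00 at 5 reads and up to 16.77 with at least 1 input read. The 12.32 and the 16.77 rest on the floor of 3 counts, at which IgG–IgG replicate 1 entered because it had no strong peak with an input read. At a minimum of 20 reads, IgG–IgG replicate 2 entered at that floor. The permutation test could not pass 0.05 under any alternative. Reads per kb turned from -1.08 to 0.57 on the log2 scale at a minimum of 5 reads. Input reads per kb turned from -7.55 to 1.38 at a minimum of 5 reads and to 4.39 at 20 reads, where IgG–IgG replicate 2 had no strong peak, and ranged from -19.4 (without IgG–IgG replicate 1) to 4.32 (without IgG–IgG replicate 2), so 1 library of 1 or 2 peaks decided its direction. The genes strong in both K4–K119 replicates and in no IgG–IgG library numbered 5920 to 8649 under all alternatives but one, and ranged from 8309 to 14128 when a library was left out, the highest without K4–K119 replicate 2. Strong peaks of K4–K119 replicate 1 shared with replicate 2 were 35.8% and 49.3% at minimums of 5 and 20 reads, 30.8% at a log2 fold above 1, 40.5% at FDR below 0.01, 44.9% with an overlap of 1 base and 38.2% with an overlap over 50%. Those of replicate 2 were 87.1%, 99.0%, 97.2%, 99.4% and 84.9% under the same settings other than FDR. The cause of these shifts was not tested. The labels give both conditions the replicate numbers 1 and 2 without saying that a number marks a shared batch. With the number as a replicate block, the difference in strong peaks was 13.15 on the log2 scale, the same as without it, and the exact sign-flip test gave p = 0.5, the smallest that 2 pairs allow. The other differences kept their values and directions under the block. The unknown sequencing depth limits any comparison of counts between libraries.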
